A study of Mus musculus with 7 samples.

Results

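Mitochondrial ribosomal proteins are the nuclear-encoded proteins of the ribosome inside mitochondria, and their genes are described here in mouse epidermis with and without Pelo. The genes were taken by name, as every row of the deposited table whose symbol begins with Mrpl or Mrps and a number. That gave 78 rows and 76 genes, out of 13167 transcripts and 13047 gene symbols. Mrpl38 and Mrpl51 had 2 rows each, and the row with more coding footprints was kept. The rule used no measured difference between genotypes.

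Ribosome profiling sequences the stretch of mRNA that a ribosome shields from nuclease, so counts of these footprints over a coding region report the ribosomes that were on it. The libraries come from primary epidermis of mice with a transgenic knockout of Pelo (KO, 2 libraries) and of wild-type mice (WT, 2 libraries). Pelota, the product of Pelo, acts with Hbs1l to release ribosomes stalled on mRNA in the cytosol. The labels give neither the ages of the mice, nor the promoter or cell type that drives the deletion, nor whether the replicates are separate animals, and p-values here therefore reflect spread among these libraries, which may be technical.

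The mitochondrial ribosome translates the few mRNAs made from mitochondrial DNA, all of which encode subunits of the respiratory chain and ATP synthase. Its protein genes lie in the nucleus, are translated by cytosolic ribosomes, and their products are imported into mitochondria and assembled there on mitochondrial ribosomal RNA into a large and a small subunit. Many of these proteins descend from bacterial ribosomal proteins, and others were added in the mitochondrial lineage.

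Promoter sequence is one thing these genes can share that their names did not select. For 67 of the 76 genes a RefSeq table of start sites (build GRCm38.p6) held at least 1 promoter, 73 in all, and the 250 bases before each start were searched on both strands for CCGGAAG, the core letters bound by ETS family factors, and for GCGC followed by any 1 base and TGCGC, a pattern of the type bound by NRF-1, which is known for regulating nuclear genes of mitochondrial function. CCGGAAG was in 17 of the 73 promoters (23.3%), in 27.9% of 68 promoters of cytosolic ribosomal protein genes and in 6.91% of all 32851 promoters in the table. The NRF-1 type pattern was in 9 of the 73 (12.3%), in 1.47% of the cytosolic set and in 3.74% of all promoters. The full set of promoters covered 27025 gene symbols, so it also held genes that were not among the 10953 whose footprints were tested. Only Mrpl17 had both patterns, and they did not overlap. The 7 windows of 30 bases below, each read 5′ to 3′ on the gene's own strand with the match in capitals, are examples from called and uncalled genes whose footprints are described further on. The first 4 hold CCGGAAG or its reverse complement, before Mrps27 and Mrpl51, which were called higher in KO, and Mrpl52 and Mrps18a, which were not called. The last 3 hold the NRF-1 type pattern or its reverse complement. They stand before Mrpl17, which was called higher, and Mrpl12 and Mrpl44, which were not called.
Mrps27, chr13:99344727-99344756, plus strand: tggtaggaccaCTTCCGGcggaggcgggct
Mrpl51, chr6:125192099-125192128, plus strand: caggggctaaaCCGGAAGtatttgactgga
Mrpl52, chr14:54426851-54426880, plus strand: caagatgtcggCTTCCGGttttcccggcag
Mrps18a, chr17:46110967-46110996, plus strand: acacccctgctCCGGAAGcggaagtgcaca
Mrpl17, chr7:105811117-105811146, minus strand: aggctctgatGCGCACGCGCaaacgcggta
Mrpl12, chr11:120484546-120484575, plus strand: tattgtctccGCGCCTGCGCgtcgcaccgc
Mrpl44, chr1:79775973-79776002, plus strand: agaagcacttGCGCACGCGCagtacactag
A match is a description of letters and not a binding site.

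Coding footprints numbered 4925876 and 4521561 in KO and 5282276 and 4221675 in WT, and the median listed transcript held 90 to 112. Pelo, the targeted gene, had 24 and 21 footprints in KO and 101 and 61 in WT (log2 change −1.65, SE 0.245, adjusted p = 0.000807 by edgeR's quasi-likelihood test). Markers of several cell types differed in level between genotypes. Suprabasal and cornified keratinocyte markers held 6.18% and 5.77% of all coding counts in KO libraries and 2.05% and 1.83% in WT libraries, with 9 of 10 tested markers higher. Dermal fibroblast markers held 4.17% and 4.75% in KO and 8.75% and 13.0% in WT, with 5 of 10 lower, so the tissue labelled epidermis also held dermal RNA. Basal keratinocyte markers held 2.46% and 2.25% in KO and 1.63% and 1.74% in WT, with 2 of 8 higher and 3 lower. Hair shaft markers held 0.537% and 0.255% in KO and 0.0184% and 0.0194% in WT. Only 5 of the 11 in that list could be tested, and all 5 were higher. Of the sebaceous gland and the adipocyte markers 7 of 8 tested each were lower. In such bulk samples a change in the number of cells of a type and a change in RNA per cell cannot be told apart. RNA-seq libraries are named in the labels but were not analysed here, so more mRNA and more ribosomes per mRNA cannot be told apart either. What part these differences have in the values below was not tested.

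Of the mitochondrial ribosomal protein genes, 24 carried more footprints in KO, 52 were not called and none was called lower. All 76 were listed in all 4 libraries and passed the filter on low counts (at least 10 in at least 2 libraries), with 19 to 217 coding footprints per gene and library. At an adjusted p of 0.05 (edgeR's quasi-likelihood test, Benjamini-Hochberg over 10953 genes), 24 of the 76 (31.6%) were higher in KO, 0 were lower and 52 were not called. Over all genes tested, 39.0% were called, 19.9% higher and 19.1% lower. At an unadjusted p under 0.05, 37 of the 76 (48.7%) were higher and 0 lower, beside 24.0% higher and 23.9% lower over all genes tested, and none was called lower by any other tool or setting run.

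The count of higher calls depended on the scaling, the test and the libraries kept. Leaving out either WT library lowered it by a similar amount. With library totals in place of TMM factors 11 of the 76 (14.5%) were higher, where 13.9% of all genes were higher and 27.3% lower. DESeq2 called 10 of the 76 (13.2%) higher, where 13.6% of all genes were higher and 10.7% lower. Without WT replicate 1 edgeR called 15 (19.7%) higher, where 15.7% of all genes were higher and 14.5% lower. With library totals and with DESeq2 the share of higher calls was thus near that of all genes. The median log2 change of the 76 was 0.41, a 1.33-fold difference, with quartiles of 0.25 and 0.62, beside a median of −0.021 and quartiles of −0.42 and 0.38 over all genes tested.

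The direction of the estimates was nearly uniform, and 14 of the 76 changes were smaller than 1 SE. Estimates were above 0 for 72 genes and below 0 for 4, from −0.31 to 1.15, and standard errors ran from 0.13 to 0.30. Both KO libraries stood above both WT libraries in normalised counts for 59 of the 76, which compares with 35.4% of all genes tested, and both stood below for 1, compared with 36.5%. In the other 16 the genotypes overlapped. All 24 called genes were among the 59, and 35 genes had both KO libraries above both WT libraries without passing the test. Called changes began at 0.42 and the largest change without a call was 0.81, so size alone did not separate called from uncalled genes.

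**Figure D1:**
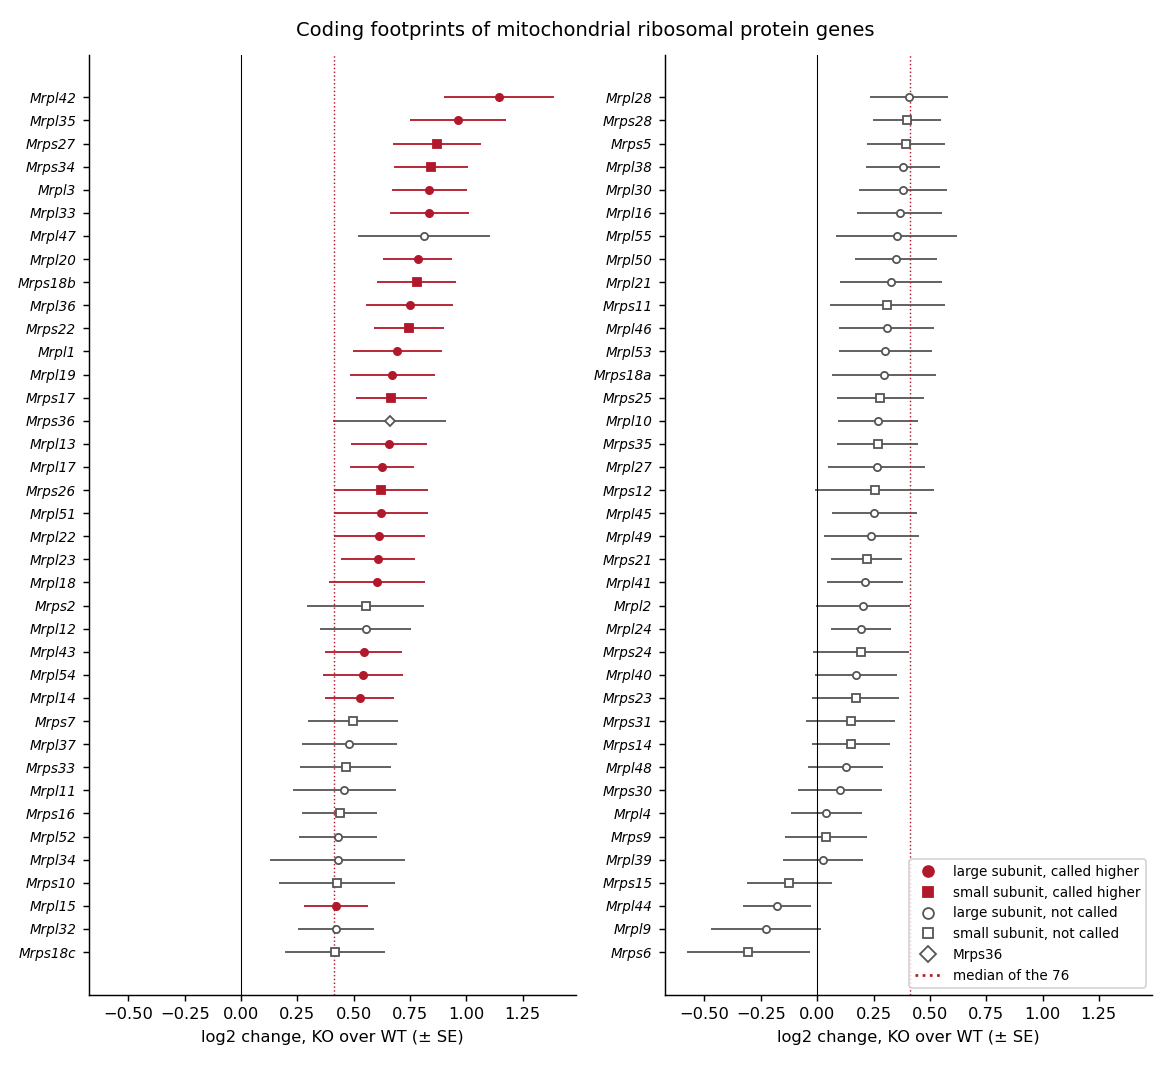
Log2 change in coding footprints, KO over WT, of the 76 mitochondrial ribosomal protein genes in order of change, with bars of 1 SE from edgeR. Filled red symbols are the 24 genes called higher, and open symbols are the 52 not called. Circles are large subunit, squares small subunit and the diamond is Mrps36. The dotted line is the median of 0.41, and 4 genes lie below 0.

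As a share of all coding footprints, the 76 genes together held 0.151% and 0.153% in KO (0.152 ± 0.00180%, mean ± SD, n = 2) and 0.132% and 0.124% in WT (0.128 ± 0.00586%). KO libraries were both above WT libraries, and the ratio of the means was 1.19. The shares use library totals without TMM factors, unlike the log2 changes. With library totals the median log2 change of the 76 was 0.24, where TMM factors gave 0.41. These shares rest on summed counts of 7419 and 6925 for KO and of 6964 and 5216 for WT. Cytosolic ribosomal protein genes, the counterpart that makes the ribosomes on which all of these mRNAs are read, held 2.13% and 2.21% in KO and 0.925% and 0.874% in WT, a ratio of 2.41. All 78 of their 79 genes that could be tested were called higher, with a median log2 change of 1.45 and a range of 1.09 to 2.50. Of the mitochondrial ribosomal protein genes only 1, Mrpl42, reached the lowest value of the cytosolic set, and it alone exceeded 2-fold. Both lists were compared with the same libraries, and the difference between them was not tested.

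**Figure D2:**
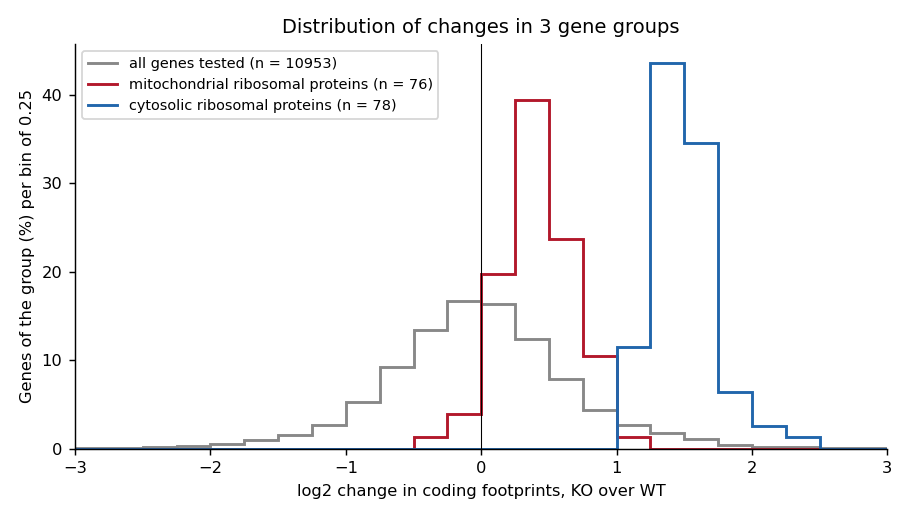
Distribution of log2 changes (x axis, KO over WT, bins of 0.25) as a percentage of the genes in each group (y axis), for all genes tested, mitochondrial and cytosolic ribosomal proteins. The bin from 0.25 to 0.5 holds 39.5% of the mitochondrial set, while the cytosolic set lies above 1. Of all genes tested, 87 lie outside the plotted range.

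The 12 largest called changes included proteins of both subunits. Mrpl42, a mitochondria-specific protein of the large subunit, had 13.1 and 11.1 CPM in KO (CPM, coding counts scaled to a common library size with TMM factors) and 5.06 and 5.95 in WT. Both KO libraries lay well above both WT libraries, on raw counts of only 60, 48, 29 and 26 (log2 change 1.15, SE 0.244, adjusted p = 0.00552 by edgeR). Mrpl35, a large subunit protein of bacterial descent, had 33.9 and 24.0 CPM in KO and 13.3 and 16.7 in WT (0.96, SE 0.214, adjusted p = 0.00678 by edgeR). Its KO libraries differed from each other by more than its WT libraries did, but the genotypes did not overlap. Mrpl3, which reaches towards the site of peptide bond formation, had 31.5 and 33.0 CPM in KO and 16.2 and 20.1 in WT (0.84, SE 0.166). Mrpl33, the shortest of all with a coding region of 138 nt, had 32.8 and 35.0 CPM in KO and 16.4 and 21.97 in WT (0.84). In Mrpl20, a bacterial-type protein that binds ribosomal RNA, the values were 30.4 and 29.3 in KO and 17.3 and 17.4 in WT (0.78), with the replicates of each genotype close together.

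The other large subunit genes of this group had smaller changes. Mrpl36 had 19.9 and 24.9 CPM in KO and 14.1 and 12.4 in WT (log2 change 0.75). Mrpl1, which forms the mobile stalk by which deacylated tRNA leaves, had 24.7 and 18.9 in KO and 12.9 and 14.2 in WT (0.69). Mrpl19 had 18.8 and 18.9 in KO and 10.99 and 12.8 in WT (0.67). The genotypes were separate in all of these, yet Mrpl36 missed the threshold without KO replicate 2 (0.58, adjusted p = 0.066 by edgeR) and without WT replicate 2 (0.67). Mrpl1 missed it without KO replicate 1 (0.49) and without WT replicate 1 (0.62), and Mrpl19 without WT replicate 1 (0.55).

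Among small subunit genes Mrps27, which encodes a pentatricopeptide repeat protein, had 25.8 and 21.4 CPM in KO and 11.7 and 14.4 in WT (log2 change 0.87, SE 0.195, adjusted p = 0.00715 by edgeR). Without WT replicate 1 it stood at 0.71 and missed the threshold. Mrps34 had 30.2 and 31.6 CPM in KO and 18.7 and 15.6 in WT (0.84), and Mrps22 29.8 and 28.6 in KO and 17.6 and 17.2 in WT (0.74). Both are mitochondria-specific, and in both the KO replicates lay close together and well above WT. Mrps18b had 23.8 and 27.4 CPM in KO and 14.0 and 16.02 in WT (0.78). Its paralogues Mrps18a (0.30, a protein that sits in the large subunit) and Mrps18c (0.42, small subunit) were not called.

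**Figure D3:**
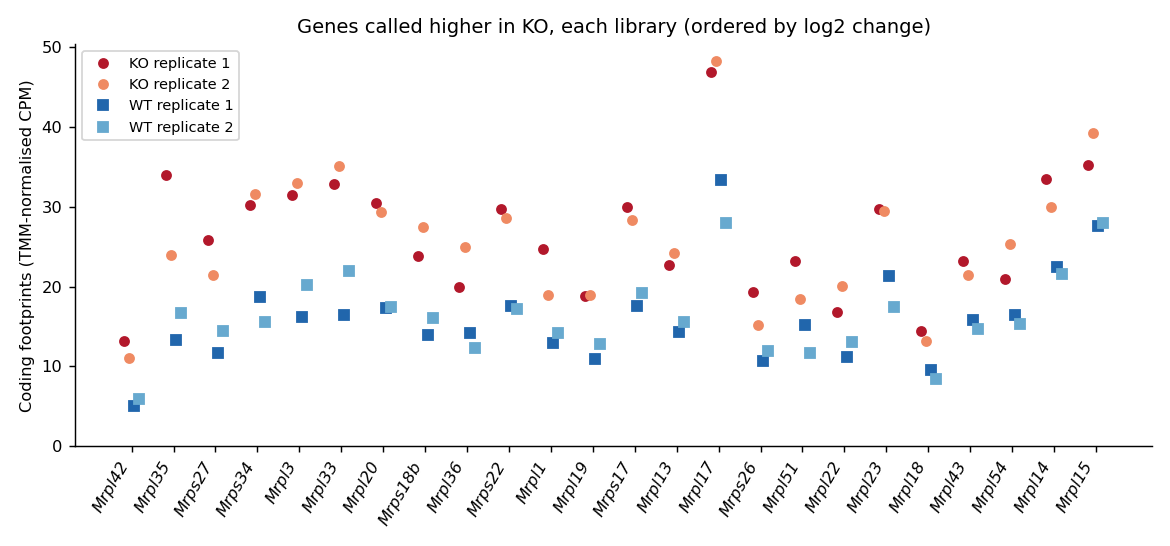
TMM-normalised coding footprints (CPM, y axis) of the 24 genes called higher, in order of log2 change from Mrpl42 to Mrpl15. Circles are the 2 KO and squares the 2 WT libraries, each point 1 library. In each of the 24 genes both circles lie above both squares.

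The remaining 12 called genes changed by 0.42 to 0.67. They were Mrps17 (0.67) and Mrps26 (0.62) of the small subunit and, in the large subunit, Mrpl13 (0.66), Mrpl17 (0.63), Mrpl51 (0.62), Mrpl22 (0.61), Mrpl23 (0.61), Mrpl18 (0.60), Mrpl43 (0.54), Mrpl54 (0.54), Mrpl14 (0.53) and Mrpl15 (0.42). Mrpl17 carried the most footprints of any called gene, 46.8 and 48.2 CPM in KO and 33.3 and 27.9 in WT. Mrpl15, with the smallest called change, had 35.2 and 39.2 CPM in KO and 27.6 and 27.9 in WT, a 1.34-fold difference between tight replicates. All of these but Mrpl17 missed the threshold when a library was left out. Mrps17 (0.59) and Mrpl13 (0.59) did so without WT replicate 1, Mrpl23 (0.48) without WT replicate 2, Mrpl51 without KO replicate 1 (0.45) or WT replicate 2 (0.46), and Mrpl18 without any 1 of the 4 libraries (0.53 to 0.70). Mrpl43, Mrpl14, Mrpl15, Mrpl22, Mrpl54 and Mrps26 each missed it in 3 of the 4 cases, with changes of 0.35 to 0.73. Mrpl43, Mrpl14 and Mrps26 passed only without KO replicate 2, and Mrpl15, Mrpl22 and Mrpl54 only without KO replicate 1.

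Calls by subunit and descent are given beside the 19.9% of all genes tested that were higher. By subunit, 18 of 49 large subunit genes (36.7%) were higher (median log2 change 0.42) and 6 of 26 small subunit genes (23.1%, median 0.40). By descent, 15 of 45 genes with a bacterial homologue were higher (0.42) and 9 of 29 mitochondria-specific genes (0.31). Crossing both, 14 of 29 large subunit genes of bacterial descent were higher (0.53) and 4 of 19 mitochondria-specific ones (0.30). In the small subunit it was 1 of 16 genes of bacterial descent (Mrps17, median 0.35) and 5 of 10 mitochondria-specific genes (0.54). The shares of 6 of 26 and 4 of 19 (21.1%) were near that of all genes. All of these counts rest on the 24 calls of the main analysis, which fell to 11 with library totals and 10 with DESeq2. No group held a gene called lower, and differences between the groups were not tested. Mrps30 and Mrps18a, although named for the small subunit, are counted with the large one, where they sit. Mrps18a and Mrps18b are counted as mitochondria-specific, but their paralogue Mrps18c is counted as of bacterial descent. Mrps18b is among the 5 called mitochondria-specific genes of the small subunit, so the split by descent depends on where it is placed. Mrps36, now known as a subunit of the 2-oxoglutarate dehydrogenase complex, is counted with neither, and no descent was assigned to Mrpl55.

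The stalk that recruits elongation factors is built from Mrpl10 and Mrpl12, with Mrpl11 at its base. Mrpl12 had 18.8 and 22.1 CPM in KO and 15.7 and 11.9 in WT (log2 change 0.55, adjusted p = 0.0569 by edgeR). Mrpl11 had 14.7 and 16.4 in KO and 13.1 and 9.15 in WT (0.46), and Mrpl10 17.9 and 18.7 in KO and 14.7 and 15.8 in WT (0.27). None of these 3 passed the test, although both KO libraries stood above both WT libraries in each. Mrpl45, which faces the inner membrane near the exit of the peptide tunnel, had 17.9 and 15.9 CPM in KO and 13.6 and 14.9 in WT (0.25) and was not called. Of the proteins near the decoding site, Mrps12 overlapped between genotypes, with 13.1 and 8.30 CPM in KO and 9.07 and 8.93 in WT (0.26). Mrps7, of the small subunit head, had 19.7 and 26.5 in KO and 17.6 and 14.9 in WT (0.50, adjusted p = 0.0782 by edgeR).

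Some genes had estimates as large as those of called genes but did not pass the test. Mrpl47 had 15.1 and 12.7 CPM in KO and 10.1 and 5.26 in WT (log2 change 0.81, SE 0.293, adjusted p = 0.0531 by edgeR). Mrps36 had 20.3 and 19.4 in KO and 15.7 and 8.93 in WT (0.66, adjusted p = 0.0639 by edgeR). In both genes WT replicate 2 was the low library, with 23 and 39 footprints.

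The 4 genes with the smallest changes were Mrpl39 (0.028), Mrps9 (0.039), Mrpl4 (0.041) and Mrps30 (0.10). Mrpl4 had 27.8 and 27.2 CPM in KO and 29.1 and 24.0 in WT. Mrps30 had 30.7 ± 3.83 in KO and 28.8 ± 6.48 in WT (mean ± SD, n = 2), with WT replicate 1 the lowest. In each of these 4 the genotypes overlapped, and the sign of the estimate turned under at least 1 other scaling or without 1 library. Estimates below 0 were those of Mrps15 (−0.12), Mrpl44 (−0.18), Mrpl9 (−0.23) and Mrps6 (−0.31), none of them called. Mrpl44, an RNase III-like protein of the large subunit, was the only gene with both KO libraries below both WT libraries, 22.1 and 23.3 CPM against 25.5 and 25.9 (SE 0.152, adjusted p = 0.386 by edgeR). Mrps6 rested on 28 and 43 footprints in KO, where replicate 1 was the lowest of the 4 libraries, and on 59 and 41 in WT.

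Levels of different genes were compared per length of coding region (CPM per kb, mean of 4 libraries). The median of the 76 genes was 28.5 CPM per kb, beside 17.9 over all genes tested and 474 for cytosolic ribosomal proteins. Quartiles of level were 21.6 and 46.5, a ratio of 2.15 between them, where the same ratio was 5.07 over all genes tested and 1.63 for the cytosolic set. Mrpl33 was highest with 238 and 254 CPM per kb in KO and 119 and 159 in WT. It was followed by Mrps21 (mean 111), Mrps14 (87.2) and Mrpl52 (83.7). Mrps21 had 120 ± 8.31 in KO and 103 ± 3.83 in WT (mean ± SD, n = 2), and Mrps14 had 105 and 78.2 in KO and 84.3 and 81.2 in WT. Mrpl52 ran from 67.8 to 108, so that its libraries overlapped with those of Mrps14 and the order of these 2 neighbours did not exceed their spread. Lowest were Mrps2 (13.5), Mrps5 (14.4), Mrps11 (14.5) and Mrpl37 (14.9), whose libraries also overlapped with each other, and the highest level was 14.2 times the lowest.

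Much of the range in level went with length, which enters the level as its divisor. Across the 76 genes the correlation between log level and log coding length was −0.756, while that between log count and log length was 0.167; both are descriptions over genes that share libraries. Coding regions were short, with a median of 525 nt and a range of 138 to 1269 nt, beside a median of 1263 nt over all genes tested. Annotated 5′ UTRs were short too, with a median of 49 nt beside 134 nt, and 3′ UTRs had a median of 281 nt beside 922 nt. The order of levels was similar in every library, with a correlation of log level across genes of 0.949 between KO replicates, 0.929 between WT replicates and 0.904 to 0.922 between genotypes. The change between genotypes and the level were only weakly related over the 76 genes (r = 0.190, a description).

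**Figure D4:**
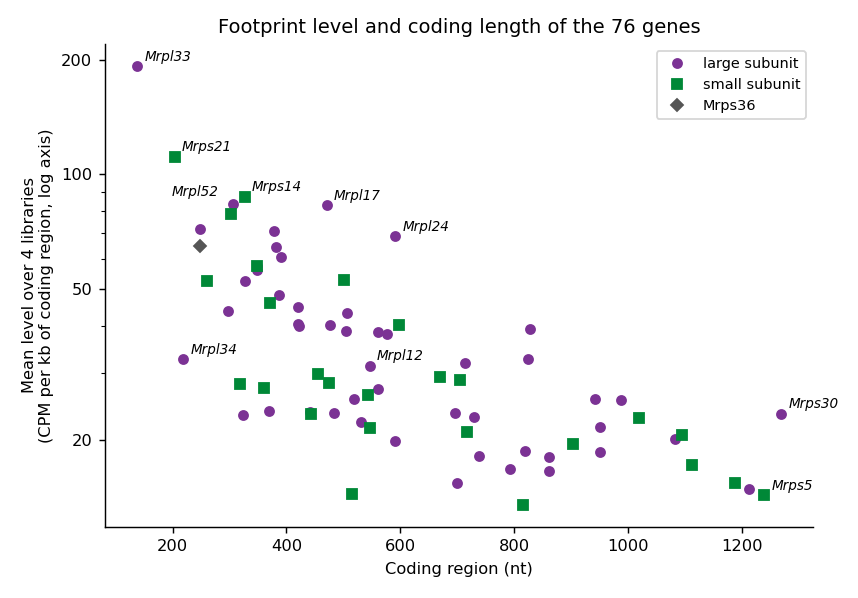
Mean coding footprint level over the 4 libraries (CPM per kb, log axis) against the length of the coding region (nt) for the 76 genes. Circles are large subunit, squares small subunit and the diamond is Mrps36. Mrpl33, at 138 nt and 192 CPM per kb, is at the upper left, and Mrps5, near 14.4 CPM per kb, is at the lower right.

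Footprints in the 5′ UTR were few but more frequent relative to coding footprints in KO. Of 74 genes with both UTRs annotated, the sum of 5′ UTR footprints was 153 and 158 in KO and 64 and 47 in WT. Relative to the coding footprints of the same genes this came to 2.12% and 2.35% in KO and 0.942% and 0.926% in WT, a ratio of 2.39. Over 10690 transcripts listed in all 4 libraries it was 1.48% and 1.72% in KO and 1.09% and 0.997% in WT, a ratio of 1.53. For cytosolic ribosomal proteins it was 0.287% and 0.312% in KO and 0.206% and 0.242% in WT. In all 3 groups both KO libraries were above both WT libraries; the difference between the groups was not tested.

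These footprints came from a small number of genes. Mrps5 and Mrps18b have no annotated 5′ UTR. Of the other 74 genes, 48 had no 5′ UTR footprint in any library and 11 had at least 10 in all. Mrpl51 had most, with 33 and 33 in KO and 5 and 7 in WT, equal to 31.1% and 41.2% of its coding count in KO and 5.75% and 13.7% in WT. Mrps21 had 21 and 12 in KO and 3 and 4 in WT, or 19.8% and 10.8% against 2.56% and 4.26%. Without Mrpl51 the summed ratio was 1.79% in KO and 0.837% in WT, a ratio of 2.13. Mrps17 had 21 and 19 in KO and 9 and 7 in WT, and Mrpl41 15 and 13 in KO and 7 and 4 in WT. Mrpl24 had 14 and 19 in KO and 14 and 6 in WT, where the genotypes met.

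The ratio of 5′ UTR to coding footprints was tested as an interaction of genotype and region in edgeR over 1618 genes with enough counts in both regions, a test added after the counts had been seen. Each region was scaled on its own, so that a change is relative to the typical gene. Of these genes 0.618% were called higher and 1.05% lower in KO. Among the mitochondrial ribosomal protein genes 5 could be tested and 0 were called, with 2 at an unadjusted p under 0.05. These were Mrps21 (log2 change of the ratio 1.48, SE 0.622, adjusted p = 0.232 by edgeR) and Mrpl51 (1.32, SE 0.474, adjusted p = 0.178 by edgeR). Mrpl51 stood at 0.59 without WT replicate 1 and at 1.93 without WT replicate 2. Mrpl41 (0.60), Mrps17 (0.12) and Mrpl24 (0.0049) had smaller estimates. When the coding total scaled both regions, so that the ratio was not centred, the median of the 1618 genes was 0.76, 29.7% were called higher and 0.865% lower. On that scale Mrpl51 (2.00, adjusted p = 0.00201 by edgeR) and Mrps21 (2.15, adjusted p = 0.00557 by edgeR) were called and the other 3 were not.

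**Figure D5:**
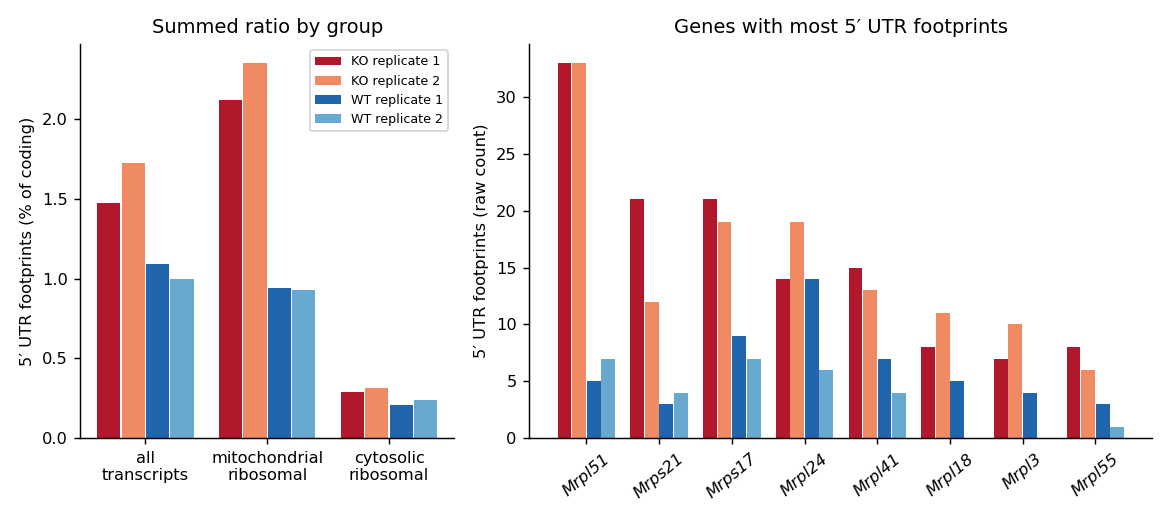
Left, footprints in the 5′ UTR as a percentage of coding footprints (y axis), summed over all transcripts, mitochondrial and cytosolic ribosomal protein genes; each bar is 1 library. Right, raw 5′ UTR footprint counts of 8 genes in the same 4 libraries. Mitochondrial ribosomal protein genes reach 2.12% and 2.35% in KO, and Mrpl51 has 33 footprints in each KO library.

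In the 3′ UTR the summed ratio lay in the other direction. The 74 genes had 45 and 56 footprints there in KO and 61 and 43 in WT, which was 0.624% and 0.833% of the coding count in KO and 0.897% and 0.847% in WT, a ratio of 0.835. Both KO libraries were below both WT libraries, as they were over the 10690 transcripts (0.557% and 0.628% in KO, 0.685% and 0.656% in WT, a ratio of 0.884). For cytosolic ribosomal proteins both KO libraries were instead above both WT libraries (0.141% and 0.133% in KO, 0.101% and 0.101% in WT, a ratio of 1.36). The difference between the groups was not tested. Mrps34 held 76 of the 205 footprints of the 74 genes (37.1%), more than any other gene, with 17 and 19 in KO and 24 and 16 in WT. These equalled 12.3% and 13.9% of its coding count in KO and 22.4% and 23.5% in WT. Without Mrps34 the KO and WT libraries overlapped in the summed ratio, so the separation of the genotypes rested on this gene. The Mrps34 ratio was lower in both KO libraries, in a gene whose coding footprints were higher. In 31 genes no 3′ UTR footprint was counted.

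Promoter patterns stood beside these calls as follows. CCGGAAG was in 9 of 19 promoters of genes called higher (47.4%) and in 8 of 54 promoters of 48 genes not called (14.8%), beside 6.91% of all promoters. The split into called and uncalled genes was unstable. Of the 9 called genes with CCGGAAG, only Mrpl3, Mrps22 and Mrpl17 were called under every alternative. The NRF-1 type pattern was in 1 of 19 (Mrpl17) and in 8 of 54, beside 3.74% of all promoters. Log2 changes of the 17 genes with CCGGAAG ran from 0.13 (Mrpl48) to 0.87 (Mrps27), and those of the 9 genes with the NRF-1 type pattern from −0.23 (Mrpl9) to 0.63 (Mrpl17). Of the other genes whose windows are printed, Mrpl51 stood at 0.62, Mrpl52 at 0.43, Mrps18a at 0.30, Mrpl12 at 0.55 and Mrpl44 at −0.18. The differences in share were not tested.

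Other genes of mitochondrial gene expression and upkeep were read from 6 further lists, beside the 19.9% higher and 19.1% lower over all genes tested; differences between these lists and the Mrpl and Mrps genes were not tested. Of 6 mitoribosome proteins with names outside the Mrpl and Mrps series, 2 were higher. Ptcd3, a pentatricopeptide repeat protein of the small subunit, rose from 26.2 ± 2.76 to 41.4 ± 3.12 CPM (mean ± SD, n = 2; log2 change 0.66, adjusted p = 0.00717 by edgeR), and Aurkaip1 by 0.46. The others, among them Dap3 (−0.13) and Ict1, the peptidyl-tRNA hydrolase that rescues stalled mitochondrial ribosomes (0.26, adjusted p = 0.389 by edgeR), were not called. Of 13 tested mitochondrial translation factors 2 were higher and 0 lower (median 0.048), namely the elongation factors Gfm1 (0.51) and Tufm (0.43).

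Assembly and ribosomal RNA modification genes gave 2 higher and 1 lower of 25 (median 0.095). These were the methyltransferase Rnmtl1 (0.83), the matrix protein C1qbp (0.74) and the pseudouridine synthase Trub2 (−0.82). Of 19 mitochondrial aminoacyl-tRNA synthesis genes, Mars2, the methionine tRNA ligase, was higher (0.81) and none was lower (median −0.020). Genes that maintain mitochondrial DNA and RNA gave 4 higher and 1 lower of 18 (median 0.24). Slirp (1.08) and its partner Lrpprc (0.57), which stabilise mitochondrial mRNA, the tRNA-processing nuclease Elac2 (0.80) and the RNA-binding Fastkd5 (0.59) were among the higher genes, and the DNA polymerase Polg was lower (−0.48). Quality control and import chaperone genes gave 6 higher and 1 lower of 11 (median 0.50), with the chaperonins Hspe1 (0.88) and Hspd1 (0.70) and prohibitin Phb (0.65) leading and the protease Spg7 lower (−0.63). In all, 17 of 92 tested genes in these 6 lists were higher (18.5%) and 3 lower (3.26%), so the share of higher calls was near that of all genes tested. Several of these calls rested on 1 library. Without KO replicate 1, Aurkaip1 (0.43), Gfm1 (0.45), Rnmtl1 (0.75), Mars2 (0.51), Fastkd5 (0.52), Polg (−0.43) and Trub2 (−0.51) missed the threshold, and without KO replicate 2, Aurkaip1 (0.49) and Spg7 (−0.53). Without WT replicate 1, Ptcd3 (0.55), Aurkaip1 (0.27), Tufm (0.35), Gfm1 (0.50), Rnmtl1 (0.74), Mars2 (0.50) and Trub2 (−0.91) missed it, and without WT replicate 2, Fastkd5 (0.49), Polg (−0.43), Spg7 (−0.44) and Trub2 (−0.74).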

How the data were processed

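Raw footprint counts, as the authors deposited them, are whole numbers per UCSC transcript and region (5′ UTR, coding, 3′ UTR), per the file headers. Region lengths in nt, also deposited, were used for levels per kb. CASAVA 1.8, Bowtie2 2.2.6 and TopHat2 2.0.10 appear with the build names hg19 and mm9 in the submitters' processing notes. Which tool did which step, and how reads matching several genes were handled, were not given in the sources used here. The headers describe 1 table of full-length and 1 of short footprints, but both tables hold the same bytes, so the length class is unknown. Counts are listed only above a coding density of 0.01 footprints per nt. The fit used the 11019 transcripts listed in all 4 libraries, of which the filter kept 10953.

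Titles gave the genotype of each library. Coding counts were scaled with TMM factors on full coding totals, and the quasi-likelihood test of edgeR 4.0.16 (R 4.3.3) was used with Benjamini-Hochberg adjustment at 0.05 and DESeq2 1.42.0 as an alternative. The scripts were tested on simulated data. Replicates differed by more than sampling noise (chi-square per gene 5.50 in KO and 10.1 in WT), and counts without molecular identifiers measure reads.

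Named genes were the 12 largest called changes, the 4 smallest, the 4 highest and 4 lowest levels, genes of given roles and up to 3 called genes per direction and pathway list; the rest, such as Mrpl47, Mrpl51, Mrps6, Lrpprc and the remaining called genes, were picked with their values in view. Members and lists were chosen with earlier results of these data known. Promoters were matched by symbol to RefSeq (GRCm38.p6), another build than the notes name. Alternatives covered scaling, test, filters, unlisted counts, a replicate block and leaving out each library.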

Additional observations from a re-analysis of the deposited data

How the results depend on the processing

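The number of mitochondrial ribosomal protein genes called higher, 24 in the main analysis, was 11 with library totals alone, 10 with DESeq2, 19 with unlisted counts set to 0, 23 of 68 with a mean of at least 50 counts, and 15 to 22 with 1 library left out (15 without WT replicate 1, 16 without WT replicate 2). None was called lower under any alternative run. Library totals shifted the all-gene median by −0.17 (log2) and split all calls into 1523 higher and 2986 lower; the median change of the 76 genes was then 0.24, with 65 above 0. That median lay between 0.38 and 0.48 with 1 library left out. DESeq2 called 1492 genes higher and 1177 lower. Mrpl35, Mrps34, Mrpl3, Mrpl33, Mrpl20, Mrps18b, Mrps22 and Mrpl17 were called under every alternative; Mrpl42 was called wherever it was tested, which excludes the filter on a mean of at least 50. The cause of these shifts was not tested.

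Replicate numbers did not pair the libraries: deviations of same-numbered libraries correlated at −0.0037, with only 2 pairs. With the replicate number as a block 25 of the 76 genes were higher, beside 20.2% of all genes. Of these 25, 23 were among the 24, and Mrpl47 (0.85) and Mrps36 (0.69) gained a call. Aminoacyl-tRNA synthesis genes then had 0 higher.

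In the pathway lists, library totals and DESeq2 each gave 1 higher among mitoribosome proteins of other names, 0 among translation factors, 1 among assembly genes and 0 among aminoacyl-tRNA genes. A mean of at least 50 counts gave 1, 1 and 0 in the lists of other names, assembly and aminoacyl-tRNA synthesis, and unlisted counts at 0 gave 1 and 0 in those of other names and aminoacyl-tRNA synthesis. Leaving out 1 library gave 0 to 2, 0 to 2, 1 to 3 and 0 to 1 in the 4 lists in the order first given. Lower calls were 0 for assembly with DESeq2, a mean of at least 50 counts and unlisted counts at 0, 0 for maintenance and for quality control with DESeq2, and 2 for maintenance with library totals and with unlisted counts at 0. Leaving out 1 library gave 0 to 1 lower in each of these 3 lists and in aminoacyl-tRNA synthesis.

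Some small estimates changed sign. With library totals Mrpl39 stood at −0.14, Mrps9 at −0.13, Mrpl4 at −0.13, Mrps30 at −0.063 and Mrps14 at −0.024. With 1 library left out, Mrpl39 lay between −0.11 and 0.16, Mrps9 between −0.13 and 0.19, Mrpl4 between −0.080 and 0.19, Mrps30 between −0.13 and 0.34, Mrps14 between −0.079 and 0.35, Mrps12 between −0.11 and 0.55, Mrpl9 between −0.62 and 0.077, Mrps6 between −0.68 and 0.0088, and the 5′ UTR ratio of Mrpl24 between −0.30 and 0.44. Without Mrpl51 the summed 5′ UTR ratio was 1.79% in KO and 0.837% in WT, and the uncentred scaling called 2 genes. The 76 genes had 19 to 217 footprints per gene and library, and their median SE was 0.19; how much of it came from depth and how much from spread between libraries was not tested.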
